A study of Mus musculus with 13 samples.

Results

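Promoters of newly formed oligodendrocytes (NFOs) were classed by the called peaks of 2 histone marks, H3K4me3 and H3K27me3. A gene had a mark when at least 1 bp of a called peak lay within 2 kb of the transcription start site (TSS) of any of its annotated transcripts, and it was therefore K4 alone, K27 alone, both or neither. Of 43224 annotated genes (21938 protein-coding and 21286 long non-coding RNA, or lncRNA, genes), 14200 carried at least 1 mark. The study mapped these marks, and the transcription factor OLIG2, by ChIP-Seq (chromatin immunoprecipitation followed by sequencing) along the mouse oligodendrocyte lineage, and the comparison here asks which promoters hold each mark in 1 of its stages. NFOs are postmitotic cells that have left the progenitor stage and begin to make myelin, the insulation of axons. They were taken at postnatal day 7 from the brains of untreated C57BL/6 mice, with about equal numbers of each sex, by immunopanning: plates coated with BSL-1 first removed microglia and endothelial cells, plates against PDGFRα then captured oligodendrocyte progenitor cells (OPCs), and anti-GalC plates captured the NFOs from the remainder. OPCs of the same source and cultured neural stem cells (NSCs) of embryonic cortex served as the other stages. The NSC strain was C57BL/6 by the labels and CD-1 by the Methods, and NSC reads were single-end where OPC and NFO reads were paired-end. Each mark had 1 library per cell type, so no test between stages or marks was possible, and the intervals given are exact binomial (Clopper-Pearson) 95% intervals that cover counting error only. In all 6 histone libraries the antibody field of the label named the other mark than the title. The titles were used, and the places of the peaks are given below under them.

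H3K4me3 is set by the SET1 and MLL (trithorax) methyltransferases and sits around the start sites of genes that are transcribed or ready to be. H3K27me3 is set by EZH2 and EZH1 in Polycomb repressive complex 2 and is read by Polycomb repressive complex 1. It lies in broad domains over silent developmental genes such as the Hox clusters. Promoters that carry both marks are called bivalent and are known from genes of development in stem cells. In bulk ChIP-Seq a promoter can carry both marks on the same chromosomes, on the 2 alleles or in different cells, and these cannot be told apart here.

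The RefSeq promoters (GRCm38.p6, 250 bp before to 50 bp after the start, 5′ to 3′ on the gene's strand) of 5 lineage and neural genes show the 4 states, with every CpG dinucleotide in capitals because CpG content differed between the states. Olig2 (chr16:91225300-91225599, plus strand), the basic helix-loop-helix factor that specifies the lineage, was K4 alone. Zic1 (chr9:91365719-91366018, minus strand), a zinc-finger factor of the dorsal neural tube, was both. Neurod1 (chr2:79456587-79456886, minus strand), a neuronal differentiation factor, and Nkx6-2 (chr7:139582748-139583047, minus strand), a homeobox factor of ventral progenitors and oligodendrocytes, were K27 alone. Mog (chr17:37023349-37023648, minus strand), which encodes a myelin surface glycoprotein, had neither mark.
Olig2: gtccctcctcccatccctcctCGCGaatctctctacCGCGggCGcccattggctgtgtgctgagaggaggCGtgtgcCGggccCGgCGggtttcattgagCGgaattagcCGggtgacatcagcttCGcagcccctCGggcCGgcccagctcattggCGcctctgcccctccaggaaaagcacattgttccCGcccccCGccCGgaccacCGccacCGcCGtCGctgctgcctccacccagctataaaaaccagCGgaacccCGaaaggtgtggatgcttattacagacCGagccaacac
Zic1: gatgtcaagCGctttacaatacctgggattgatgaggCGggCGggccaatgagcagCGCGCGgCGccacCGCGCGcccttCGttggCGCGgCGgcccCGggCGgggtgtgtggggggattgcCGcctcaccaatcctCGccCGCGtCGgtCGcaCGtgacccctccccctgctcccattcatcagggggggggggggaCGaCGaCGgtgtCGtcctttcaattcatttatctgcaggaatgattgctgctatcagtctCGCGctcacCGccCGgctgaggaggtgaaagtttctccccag
Neurod1: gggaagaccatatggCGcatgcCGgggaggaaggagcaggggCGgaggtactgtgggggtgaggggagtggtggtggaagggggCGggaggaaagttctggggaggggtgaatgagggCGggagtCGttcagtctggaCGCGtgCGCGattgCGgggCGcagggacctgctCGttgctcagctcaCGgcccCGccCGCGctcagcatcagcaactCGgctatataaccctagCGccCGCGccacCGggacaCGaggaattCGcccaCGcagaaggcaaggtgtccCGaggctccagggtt
Nkx6-2: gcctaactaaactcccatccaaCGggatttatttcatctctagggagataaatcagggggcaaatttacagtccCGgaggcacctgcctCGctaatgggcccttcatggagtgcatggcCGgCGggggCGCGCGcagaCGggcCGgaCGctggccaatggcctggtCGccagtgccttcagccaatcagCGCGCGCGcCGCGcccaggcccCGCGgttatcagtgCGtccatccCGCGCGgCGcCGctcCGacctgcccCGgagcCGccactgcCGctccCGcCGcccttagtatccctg
Mog: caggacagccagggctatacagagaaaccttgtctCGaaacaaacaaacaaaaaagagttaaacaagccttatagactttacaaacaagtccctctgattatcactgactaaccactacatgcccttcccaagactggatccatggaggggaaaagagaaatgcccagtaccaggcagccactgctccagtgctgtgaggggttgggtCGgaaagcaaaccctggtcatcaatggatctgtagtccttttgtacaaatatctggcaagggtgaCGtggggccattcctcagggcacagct
The window held 25 CpG in Olig2, 31 in Zic1, 26 in Neurod1, 32 in Nkx6-2 and 3 in Mog. Over all genes, a window of this length held a median of 19 CpG in K4 alone, 16 in both, 9 in K27 alone and 3 in neither. The upper quartile was 26 in both and 20 in K27 alone. Zic1, Neurod1 and Nkx6-2 were thus richer in CpG than most genes of their states. All but Mog had a GC box (GGGCGG on either strand), and a TATA box (TATAAA) was found in Olig2 alone. An H3K4me3 peak at chr16:91225498-91229194 began inside the Olig2 window, 41 bp from the nearest start annotated by GENCODE. At Zic1 an H3K4me3 peak (chr9:91365650-91365892) overlapped the window, and the H3K27me3 peaks on its sides (chr9:91351580-91364268 and chr9:91366703-91367665) did not. At Neurod1 an H3K27me3 peak of 14227 bp (chr2:79448652-79462878) spanned the whole window. The Nkx6-2 window lay within an H3K27me3 peak of 4127 bp (chr7:139582733-139586859).

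The markers of the panned cells were only in part marked by H3K4me3. Of 15 oligodendrocyte lineage markers, 7 were K4 alone (Olig1, Olig2, Sox10, Nkx2-2, Gpr17, Cnp and Ugt8a) and 8 had neither mark, among them the myelin genes Mbp, Mag and Mog and Myrf, the factor that turns on myelin genes. Among all protein-coding genes, 38.9% were K4 alone, 4.89% K27 alone, 4.67% both and 51.5% neither. The lineage markers, at 46.7% K4 alone and 53.3% neither, were near those shares. Of 3 OPC markers, Pdgfra and Ptprz1 were K4 alone and Cspg4 had neither mark. None of 8 microglial and 7 endothelial markers was K4 alone. Kdr and Flt1 (endothelial) were both, P2ry12 (microglial), Esam and Cldn5 were K27 alone, and the remaining 10 had neither mark. Of 9 neuronal markers, 3 were K4 alone (Gad1, Snap25 and Tubb3), 3 K27 alone and 3 both. Of 7 astrocyte markers, Slc1a2 and Slc1a3 were K4 alone. A promoter mark is not an RNA level, and whether other cells contributed was not tested.

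The H3K4me3 library had more peaks and the H3K27me3 library covered more of the genome. The deposited lists held 21736 H3K4me3 peaks of median width 255.5 bp (quartiles 197 and 654 bp) and 12688 H3K27me3 peaks of median width 580 bp (quartiles 224 and 1082 bp). H3K4me3 covered 10.6 Mb, of which 6.88 Mb (65.2%) lay within 2 kb of a TSS. H3K27me3 covered 14.1 Mb, of which 4.18 Mb (29.6%) lay within 2 kb of a TSS. Peaks of at least 5 kb made up 28.8% of the H3K27me3 bp (449 peaks) and 1.10% of the H3K4me3 bp (8 peaks). The H3K4me3 peaks were short, with 67.8% of them under 500 bp, against 26.8% in OPCs, where the median width was 987 bp, the list covered 21.4 Mb and 17140 genes had the mark. In NFOs 12337 genes had it, and the part of depth in this was not tested, since the lists hold no read totals. Peaks of either mark that lay within 2 kb of a TSS were wider than the others: the median was 403 against 209 bp for H3K4me3 and 770 against 496 bp for H3K27me3.

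More promoters were K4 alone than held H3K27me3 in any form. K4 alone held 10904 of all genes (25.2%, interval 24.8 to 25.6), K27 alone 1863 (4.31%, 4.12 to 4.51), both 1433 (3.32%, 3.15 to 3.49) and neither 29024 (67.1%, 66.7 to 67.6). Among protein-coding genes the shares were 38.9% (8536 genes), 4.89% (1073), 4.67% (1025) and 51.5% (11304). Any H3K4me3 was at 9561 protein-coding genes (43.6%) and any H3K27me3 at 2098 (9.56%). LncRNA genes held fewer marks, with H3K4me3 at 2776 (13.0%), H3K27me3 at 1198 (5.63%) and both at 408. The overlap of the marks was unequal when seen from each side: 11.6% of the 12337 genes with H3K4me3 also had H3K27me3, and 43.5% of the 3296 genes with H3K27me3 also had H3K4me3. Many promoters were shared, since another gene's TSS lay within 2 kb for 53.5% of K4 alone, 33.0% of K27 alone and 48.6% of both genes, and for 30.3% of all genes, so a peak often marked more than 1 gene. Genes with more annotated starts also had more chances of a mark: the median number of TSS was 4 for K4 alone, 2 for K27 alone, 3 for both and 1 for neither.

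H3K4me3 was highest just downstream of the start, and H3K27me3 was lower at the start than on its sides. Around the 5′ TSS of K4 alone genes the share of genes covered by H3K4me3 was 29.1% at the start and highest at 300 bp downstream, at 35.0%. In genes with both marks it was highest at 400 bp downstream, at 20.6%. H3K27me3 had its highest share at 1000 bp downstream in K27 alone genes (32.6%, against 22.3% at the start). In genes with both marks its highest share was at 1400 bp downstream (35.0%). Upstream it was nearly as high, with 29.5% at 800 bp in K27 alone genes and 33.7% at 900 bp in genes with both marks. A called peak covered a TSS in 4840 of the 12337 genes with H3K4me3 (39.2%) and in 991 of the 3296 genes with H3K27me3 (30.1%). The nearest peak was 1 to 2 kb away for 1187 and 751 genes, so the distance limit bore on H3K27me3 more. At the limit stood Map3k14 (H3K4me3 peak at 2000 bp, fold enrichment 3.39) and Brms1 (1998 bp, 4.57) just inside, and Gm14396 (2001 bp) and Gm52902 (2002 bp) just outside. For H3K27me3, Cbln2 (1996 bp, 3.25) and Gm11529 (1992 bp, 4.65) were just inside, and Epha8 (2002 bp) and Defb20 (2003 bp) just outside. Fold enrichment is the peak caller's ratio of immunoprecipitate to its background, given by the authors for each peak.

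**Figure D1:**
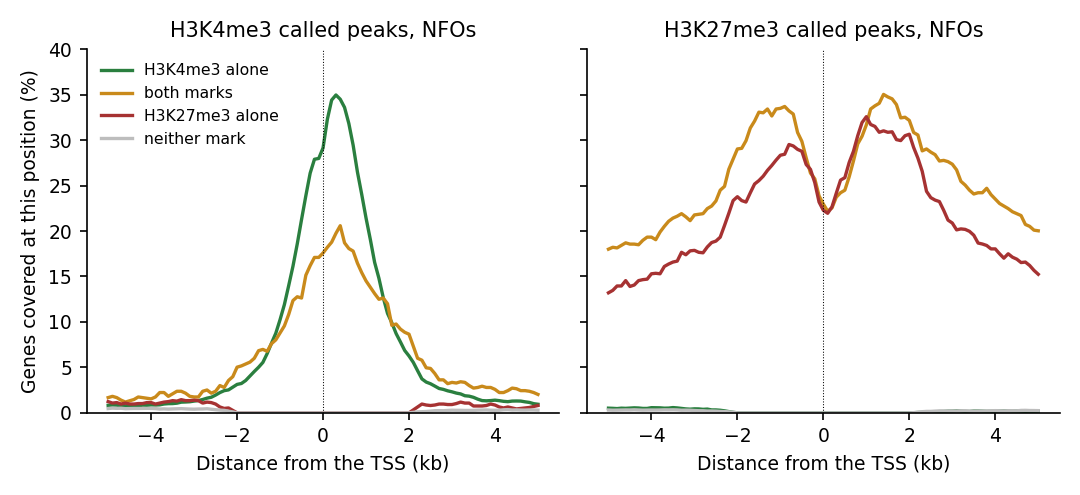
Share of genes (%) covered by a called NFO peak of H3K4me3 (left) and H3K27me3 (right) against distance from the 5′ TSS (kb, 5 kb to each side in steps of 100 bp), 1 line per promoter state. H3K4me3 is highest 300 bp downstream in K4 alone genes (35.0%), and H3K27me3 is highest 1400 bp downstream in genes with both marks (35.0%).

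Genes with both marks mostly held a short H3K4me3 peak beside or within a longer H3K27me3 domain. Within 2 kb of their TSS the median cover was 392 bp of H3K4me3 and 991 bp of H3K27me3, and H3K27me3 covered more in 963 of 1433 genes (67.2%). H3K27me3 covered at least 50% of the window in 303 of them, and H3K4me3 in 23. For comparison, the median cover was 623 bp of H3K4me3 in K4 alone genes and 797 bp of H3K27me3 in K27 alone genes. The windows differed in length, with medians of 7325 bp for both, 7692 bp for K4 alone and 4033 bp for K27 alone. As a share of the window, H3K27me3 covered a median of 13.9% in genes with both marks and 14.5% in K27 alone genes. H3K4me3 covered 5.71% in genes with both marks and 7.71% in K4 alone genes. The peaks of the marks overlapped in 952 genes (66.4%) and lay apart in 481. In 502 genes the marks overlapped and no peak of 1 mark stood alone near a TSS. Where they overlapped, the shared stretch had a median of 237 bp (quartiles 193 and 452.75 bp). Over the genome the marks shared 0.683 Mb, which was 6.47% of the H3K4me3 bp and 4.83% of the H3K27me3 bp.

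The more enriched H3K27me3 peaks were those that more often overlapped H3K4me3. Of 4094 H3K27me3 peaks with a fold enrichment up to 3.5, 5.18% overlapped an H3K4me3 peak. The share was 9.14% of 6971 peaks from 3.5 to 5 and 46.2% of 1600 peaks from 5 to 10, and 17 of the 23 peaks above 10 overlapped. H3K4me3 peaks showed no such order, with shares between 6.86% and 10.8%. The H3K27me3 peaks of the same fold classes, from lowest to highest, had median widths of 440.5, 681, 778 and 283 bp. The part of width in the overlap was not tested. Enrichment went with place for both marks. Of H3K4me3 peaks up to 3.5, 29.0% lay within 2 kb of a TSS. The share was 95.7% of the 304 H3K4me3 peaks above 20, which had a median width of 360 bp. For H3K27me3 it rose from 21.7% of peaks up to 3.5 to 31.0% from 3.5 to 5, 48.1% from 5 to 10 and 52.2% above 10. The 3 most enriched H3K4me3 peaks were at Mpped2 (chr2:106694396-106694735, fold enrichment 54.0, 485 bp from the TSS), at Lrfn2 (chr17:48932259-48932619, 49.3) and at Cdkn2a (chr4:89295034-89295370, 49.1, 381 bp from the TSS). Cdkn2a, which encodes the cell cycle inhibitors p16INK4a and ARF, also lay in H3K27me3 domains that covered 5236 of its 8002 bp window. The 2 widest H3K4me3 peaks lay on an unplaced scaffold (Un_JH584304, 46899 bp) and at chr9:3005786-3038299 (32514 bp, with the TSS of 8 genes inside, Gm26870 among them), and the H3K27me3 list held peaks over nearly the same bases (46698 and 32476 bp). Next in width was the H3K4me3 peak at Qk, an RNA-binding protein needed for myelin, which ran over 9408 bp (chr17:10310239-10319646). Without the 2 regions found in both lists both marks stood at 1425 genes and the shared stretch was 0.604 Mb.

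**Figure D2:**
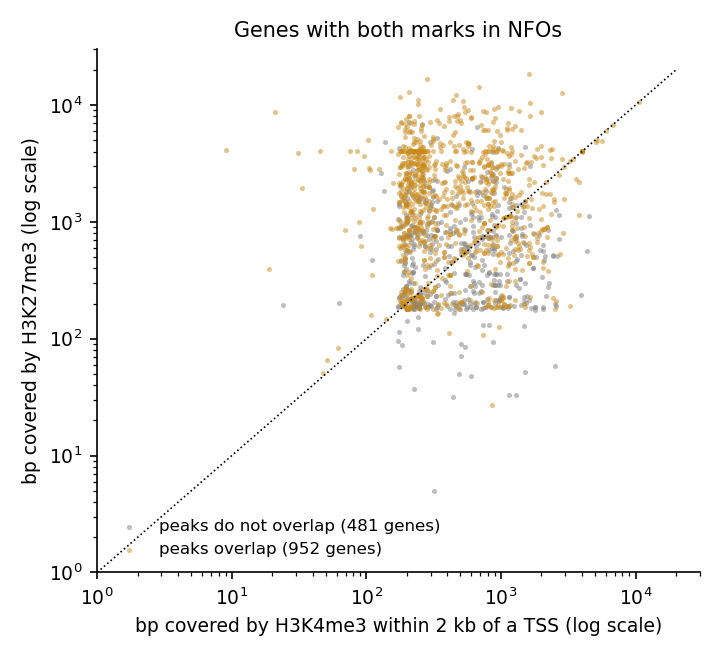
Each point is 1 of the 1433 NFO genes with both marks, by bp covered by H3K4me3 (x axis, log scale) and by H3K27me3 (y axis, log scale) within 2 kb of its TSS, coloured by whether the peaks overlap (952 genes) or not (481 genes). Most points lie above the line of equal cover, with H3K27me3 covering more in 963 genes.

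Gene lists were described by their counts, with no test, and are read against the shares of protein-coding genes given above. Of 61 lists, any H3K27me3 was at over 50% of the members in 15, K4 alone in 18 and neither mark in 12. The 15 lists with H3K27me3 were all of transcription factors of development, except the Wnt ligands and the neuronal genes. In 8 homeobox lists together, 139 of 163 genes (85.3%) had H3K27me3, 78 of them with H3K4me3, and 11 were K4 alone. Among the homeobox genes with the mark, H3K27me3 covered a median of 76.4% of the window, against 11.6% over all protein-coding genes with the mark, and H3K4me3 covered a median of 6.12%, against 6.79%.

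All 39 Hox genes, which set position along the body axis, had H3K27me3: 16 were K27 alone and 23 both, with a median of 88.2% of the window covered by H3K27me3. H3K27me3 covered 93.3% of the Hoxa cluster (chr6:52155590-52260880), 87.8% of Hoxb without Hoxb13 (chr11:96271457-96368256), 89.5% of Hoxc (chr15:102921103-103036852) and 82.9% of Hoxd (chr2:74668310-74765142). H3K4me3 covered 2.57%, 4.69%, 3.20% and 5.26% of the same stretches. All of these H3K4me3 bp lay inside H3K27me3 peaks, except 1 bp of the 5091 bp in Hoxd. At Hoxa10 the H3K27me3 peak spanned the whole window of 9676 bp and no H3K4me3 peak was called. Hoxd3 had 284 bp of H3K4me3 and 16537 bp of H3K27me3 in a window of 18757 bp. The clustered protocadherins, which label single neurons and also lie in tandem, went another way: 14 of 57 were K4 alone, 43 had neither mark and none had H3K27me3.

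Other factor families differed in how often H3K4me3 accompanied H3K27me3. All 5 Zic genes were both. At Zic1, H3K4me3 covered 523 bp and H3K27me3 4178 bp of 6757 bp, with fold enrichments of 14.0 and 5.40. Of 12 Lhx and Lmx genes, LIM-homeobox factors of neuronal subtypes, 9 were both and 3 K27 alone. Lhx4 held the strongest H3K4me3 peak of the list (fold enrichment 28.2, 569 bp) beside 1843 bp of H3K27me3. Of 9 Pax genes, 4 were both, 4 K27 alone and only Pax4 had neither. Pax6, a factor of radial glia and the eye, had 738 bp of H3K4me3 and 8972 bp of H3K27me3 in 24424 bp. Of 6 Gata genes, 3 were both and 2 K27 alone. Gata3, a factor of T cells and of neurons, had the highest H3K27me3 enrichment of its list (9.58, 12670 of 15180 bp), with 2840 bp of H3K4me3. Of 16 Tbx genes 8 were both and 5 K27 alone. At Tbx3 the marks covered 1632 and 10313 bp of 12352 bp. Fox genes were spread over the states, with 8 K4 alone, 11 K27 alone, 14 both and 11 neither of 44.

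Most Sox and Pou genes were outside H3K27me3, but the lists held it more often than protein-coding genes as a whole. Any H3K27me3 was at 5 of 19 Sox genes (26.3%) and 3 of 15 Pou genes (20%), against 9.56%. Of 19 Sox genes, 11 were K4 alone. They included Sox6 and Sox5, which hold progenitors undifferentiated, and Sox8, a partner of Sox10. Sox17, Sox7 and Sox18, the factors of endothelial cells, were the 3 that were K27 alone. H3K27me3 covered 6876 of 7751 bp at Sox17 and all 4001 bp at Sox7. Of 15 Pou genes 5 were K4 alone, 3 both and 7 neither. Zinc-finger genes named Zfp or Zkscan, many of them with a KRAB domain, held H3K27me3 at 9 of 418 and were K4 alone at 277.

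Among the 16 proneural factors, which drive neuronal fate, 12 had H3K27me3 (7 alone and 5 with H3K4me3). Neurod1 was covered by H3K27me3 over its whole window of 4001 bp with no H3K4me3. Olig3, a dorsal relative of Olig2, was also covered over all 4001 bp and had 938 bp of H3K4me3 within. Atoh1, a factor of cerebellar granule cells and hair cells, had 801 bp of H3K4me3 (fold enrichment 10.2) and 3046 bp of H3K27me3. Neurog2 had 432 bp and 1806 bp. Neurod4, Nhlh1 and Tal2 had neither mark. The genes of neuronal function split more evenly: of 17, 6 were K4 alone, 4 K27 alone, 5 both and 2 neither. At Slc17a6, a vesicular glutamate transporter, H3K27me3 covered the whole window of 11144 bp around 240 bp of H3K4me3. Gad2, the enzyme of GABA synthesis, had H3K27me3 over 4167 of 5100 bp. Map2, a dendritic microtubule protein, and Snap25, a synaptic vesicle fusion protein, were K4 alone, with 4701 of 34472 bp and 1590 of 4026 bp.

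Regulators of the lineage were mostly K4 alone, with 17 of 22 in that state. H3K4me3 covered 2326 of 4001 bp at Olig2, with a fold enrichment of 4.90. It covered 3064 of 8306 bp at Nkx2-2, a homeobox factor of differentiation, where Nkx2-2 was the 1 K4 alone member of 14 Nkx genes, of which 7 were K27 alone and 5 both. Gpr17, a receptor that marks committed cells, had 1925 of 4001 bp, Zfp488, a zinc-finger factor of the lineage, 1832 of 4001 bp and Yy1, a factor needed for differentiation, 3015 of 8002 bp. At Sox10, the factor that keeps the lineage on course, H3K4me3 covered 811 bp and its strongest peak reached a fold enrichment of 19.2. Zeb2, which represses inhibitors of myelination, had 6114 of 20077 bp. Sox17, Nkx6-1 and Nkx6-2 were the 3 regulators that were K27 alone, with 2177 of 4001 bp covered at Nkx6-1 and 2923 of 4008 bp at Nkx6-2. Tcf7l2, a Wnt effector of newly formed cells, was both, with 2052 bp of H3K4me3 (fold enrichment 17.0) and 628 bp of H3K27me3 (2.95). Myrf had neither mark.

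Myelin protein genes were marked about as often as protein-coding genes as a whole. Of 18, 5 were K4 alone, 2 K27 alone, 1 both and 10 neither (55.6%, against 51.5% of protein-coding genes), and 3 had any H3K27me3 (16.7%, against 9.56%). Mbp, Mag, Mog and Cldn11, components of the sheath, and Ermn, Gjb1 and Aspa were among those with neither. In the members with H3K4me3 it covered a median of 4.46% of the window, against 6.79% over protein-coding genes with the mark. Omg, the oligodendrocyte-myelin glycoprotein, had 639 of 4001 bp with a fold enrichment of 14.5. Nfasc, a node protein, had 607 of 24126 bp, Pllp 448 of 9478 bp, Tspan2 285 of 8688 bp and Cnp, a myelin enzyme, 212 of 4988 bp with a fold enrichment of 3.31. Mal, a lipid raft protein of myelin, was both, with 209 bp of H3K4me3 and 1501 bp of H3K27me3 (fold enrichment 6.26). Cntn2 and Opalin were K27 alone with 554 and 186 bp. Enzymes of cholesterol synthesis, a main lipid of myelin, were K4 alone at 17 of 22, and none had H3K27me3. H3K4me3 covered 2318 of 4086 bp at Hmgcs1, 1961 of 8032 bp at Sqle and 1795 of 17792 bp at Dhcr7. Of 9 other myelin lipid enzymes, 4 were K4 alone, with 958 of 8070 bp at Ugt8a, which makes galactocerebroside, the antigen of the panning step. Fa2h, Gal3st1, Cers2, Elovl1 and Sptlc1 had neither mark.

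Genes of the progenitor stage still held H3K4me3 in NFOs, with 13 of 15 OPC identity genes K4 alone. Pdgfra, the receptor for the OPC mitogen PDGF, had 3776 of 12543 bp, and Ptprz1 2636 of 16279 bp. Cspg4, the NG2 proteoglycan, had neither mark. Id4, an inhibitor of differentiation, was both, with 806 bp of H3K4me3 (fold enrichment 28.0) and 205 bp of H3K27me3 (3.85). Of 11 genes of newly formed oligodendrocytes, 4 were K4 alone, 1 K27 alone, 3 both and 3 neither. Bmp4 carried both marks (1145 bp at 19.5 and 2622 bp at 5.08), and Bcas1, Enpp6 and Neu4 had neither. Of 15 neural stem cell genes, 5 were K4 alone (Sox2, Fabp7, Sox11, Sox4 and Hes5) and 5 both, such as Pax6, Lhx2, Sox1 and Nr2e1.

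Signalling genes held every state. Of 19 Wnt ligands, 6 were K27 alone, 7 both, 5 neither and Wnt7a alone was K4 alone (996 of 8028 bp). Wnt7a is a ligand by which oligodendrocyte precursors act on vessels. Wnt3 had 2168 of 4001 bp of H3K27me3, and Wnt8b 371 bp of H3K4me3 and 4568 bp of H3K27me3 in 8002 bp. Their Fzd receptors had H3K4me3 at 8 of 10, and H3K27me3 at 5. In the Sonic hedgehog pathway, the ligands Ihh and Dhh were K27 alone and Shh both, while the receptor Ptch1 was K4 alone (3198 of 22063 bp, fold enrichment 17.7), as were Gas1, Hhip and Sufu. The effectors Gli2 and Gli3 were both, and Gli1 and Smo had neither mark. Of 19 Notch pathway genes 12 were K4 alone, such as Hes1 (2397 of 5955 bp) and the ligand Dll1 (1868 of 12483 bp). Dll4, the endothelial ligand, was K27 alone (4008 of 6755 bp), and so was Notch2. Potassium channels spread as 25 K4 alone, 17 K27 alone, 12 both and 38 neither of 92. Glutamate receptors were K4 alone at 14 of 26, with 2134 of 4257 bp at Gria2, the subunit that limits calcium entry.

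The writers of the marks and the cell cycle inhibitors were also followed. Of 19 trithorax and demethylase genes 18 were K4 alone and Kmt2b had neither mark. Of 28 Polycomb genes, 16 were K4 alone, 2 K27 alone, 4 both and 6 neither. Ezh2, the methyltransferase, was K4 alone (1278 of 30155 bp), as were Eed and Jarid2, while Cbx2 and Cbx7, which read the mark, were K27 alone and Bmi1, Cbx8 and Pcgf1 were among those with both. Of 7 CDK inhibitors, which hold the cell cycle, Cdkn1b, the p27 inhibitor that accompanies OPC exit from the cycle, was K4 alone with 2158 of 4113 bp. Cdkn2d was also K4 alone, Cdkn2a, Cdkn2b and Cdkn2c were both, and Cdkn1a and Cdkn1c had neither mark.

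Housekeeping genes were mostly K4 alone. In 6 lists together (ribosomal proteins, the mitochondrial ribosome, the respiratory chain, the proteasome, translation and splicing factors), 289 of 371 genes (77.9%) were K4 alone, 2 K27 alone, 6 both and 74 neither. H3K4me3 covered a median of 10.5% of the window there. Rpl41 had 2706 of 4204 bp. The H3K27me3 cover of the 4 ribosomal genes with both marks was between 167 bp (Rpl22) and 187 bp (Rpl26). Histone genes were K4 alone at 46 of 80 and had no H3K27me3. Chemosensory and barrier genes had neither mark: 1061 of 1093 olfactory receptors, 313 of 327 vomeronasal receptors and 102 of 105 keratins.

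**Figure D3:**
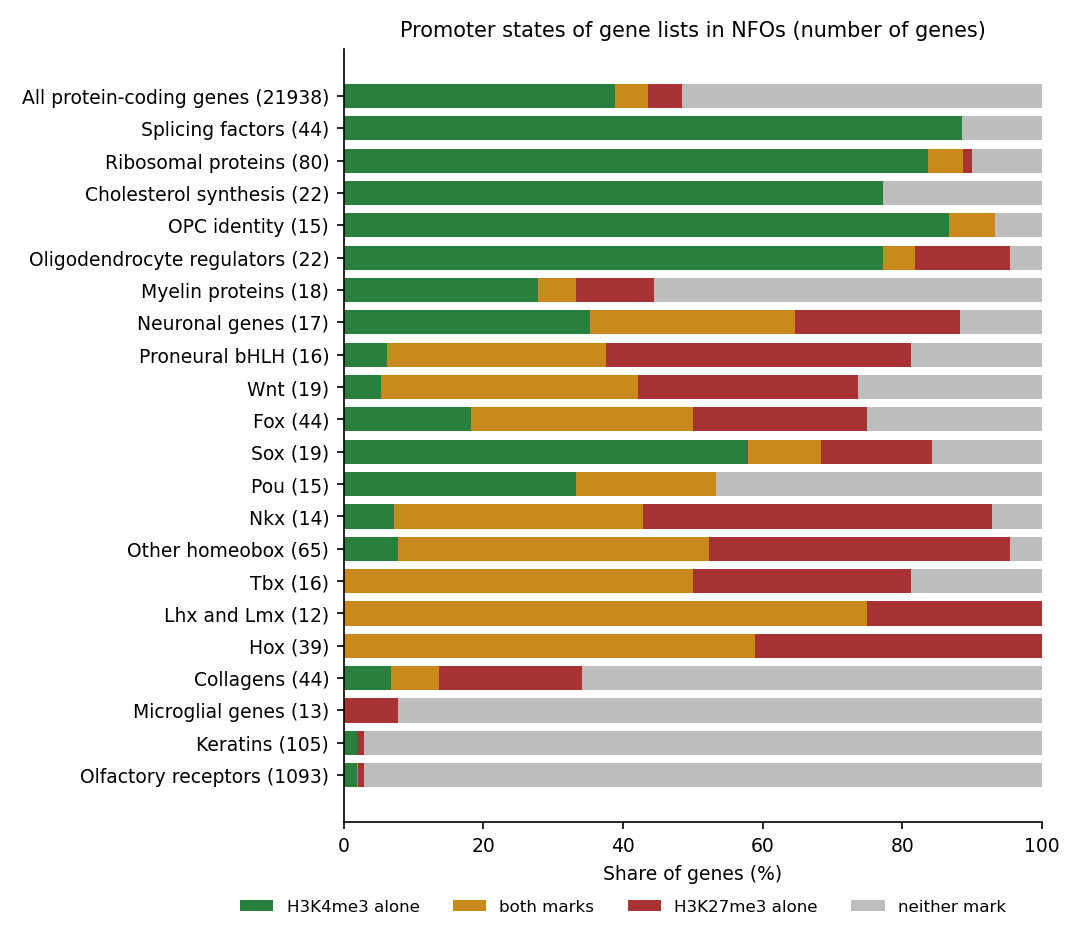
Share of genes (%) in each promoter state for gene lists in NFOs, 1 bar per list with its number of genes, coloured by state. Hox genes are wholly K27 alone or both (16 and 23 of 39), ribosomal proteins are mostly K4 alone (67 of 80) and olfactory receptors mostly have neither mark (1061 of 1093).

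CpG content differed between the states. The ratio of observed to expected CpG in the 1 kb around the 5′ TSS had a median of 0.733 in K4 alone genes, 0.655 in both, 0.481 in K27 alone and 0.218 in neither, against 0.299 over all genes. A ratio of at least 0.6 was found in 70.9%, 59.0%, 36.0% and 10.7% of them, and in 28.6% of all genes. Of the 12359 genes at or above 0.6, 62.6% were K4 alone, 5.42% K27 alone, 6.85% both and 25.2% neither. Of the 30865 genes below it, 10.3% were K4 alone, 3.87% K27 alone, 1.90% both and 84.0% neither. H3K4me3 of any kind thus stood at 69.4% of the first and 12.2% of the second, and H3K27me3 at 12.3% and 5.77%. In the same 300 bp window at the 5′ TSS of every gene, read from the genome, the GC box (GGGCGG, either strand) was in 57.1% of K4 alone, 51.5% of both, 41.1% of K27 alone and 16.1% of neither promoters, against 28.7% of all. The TATA box (TATAAA, either strand) ran the other way, in 7.65%, 8.79%, 11.4% and 17.6%, against 14.5% of all. An E-box (CAGCTG, which reads the same on both strands) was in 14.2%, 14.2%, 17.3% and 16.7%, against 16.0%. A match is a description of the letters and not a binding site.

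OLIG2 peaks of NFOs, an independent library, stood more often at promoters with H3K4me3 than at those without. An OLIG2 peak lay within 2 kb of a TSS in 1612 K4 alone genes (14.8%, interval 14.1 to 15.5) and 219 genes with both marks (15.3%, 13.5 to 17.3). It did so in 95 K27 alone genes (5.10%, 4.14 to 6.20) and 1183 genes with neither (4.08%, 3.85 to 4.31), against 7.19% of all genes. The K4 alone and both intervals overlapped each other and neither overlapped the other pair. At only 1 TSS per gene, which was tried once the values were known and so chosen after seeing the data, the shares were lower, at 9.79%, 9.35%, 3.11% and 3.09% for K4 alone, both, K27 alone and neither. Within genes of high CpG ratio the shares were 16.0% for K4 alone, 14.4% for both, 3.13% for K27 alone and 6.84% for neither, and within those of low ratio 11.9%, 16.5%, 6.20% and 3.74%. Genes share promoters and the intervals take them as independent.

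**Figure D4:**
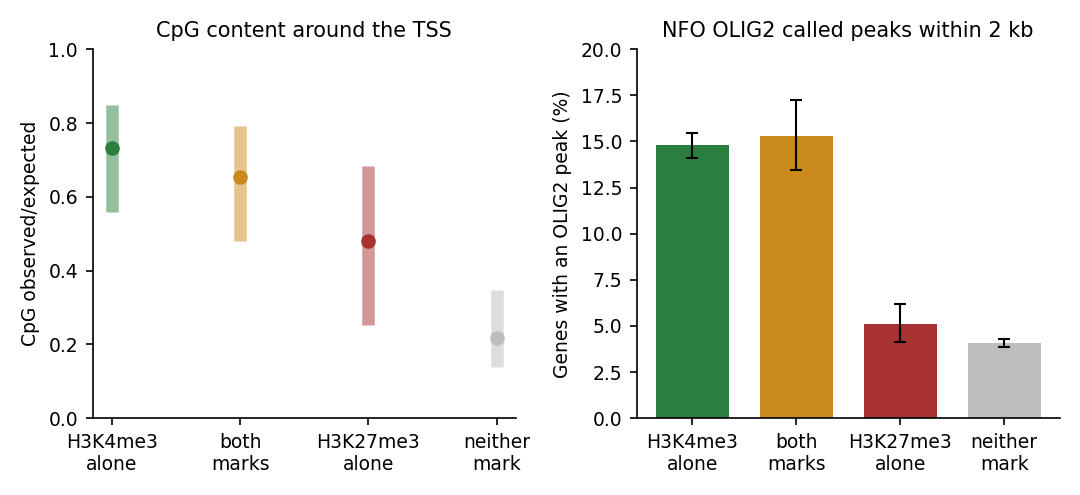
CpG observed/expected ratio in the 1 kb around the 5′ TSS (left, points are medians and bars run between the quartiles) and share of genes (%) with an NFO OLIG2 peak within 2 kb (right, with exact 95% binomial intervals) for the 4 promoter states in NFOs. The CpG ratio is highest in K4 alone (median 0.733) and lowest in neither (0.218), and OLIG2 is at 14.8% and 15.3% of K4 alone and both genes against 5.10% and 4.08% of K27 alone and neither.

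Most genes with a mark in NFOs also had a mark in the earlier stages, and more genes had H3K4me3 there. Of K4 alone genes in NFOs, 86.6% were K4 alone in OPCs and 9.12% both. Of genes with both marks, 78.7% were both in OPCs, 9.98% K4 alone and 10.5% K27 alone. Of K27 alone genes, 47.9% were K27 alone in OPCs and 31.8% both. Of genes with neither, 78.7% had neither in OPCs and 14.5% (4197 genes) were K4 alone there, in the list that covered 21.4 Mb. In NSCs 82.9% of the K4 alone genes were K4 alone, and 54.1% of the both genes were both and 40.3% K4 alone. Of the K27 alone genes, 13.7% were K27 alone in NSCs, 26.4% both, 29.7% K4 alone and 30.2% neither. The state was the same in all 3 cell types for 8331 K4 alone genes (76.4%), 661 with both (46.1%), 213 K27 alone (11.4%) and 20526 with neither (70.7%). All these shares are of the genes of an NFO state and do not measure how many genes kept an earlier state. Counted forward, 67.9% of the K4 alone genes of OPCs were K4 alone in NFOs. Of the OPC genes with both marks 34.8% were both in NFOs. Of the OPC K27 alone genes 34.8% were K27 alone in NFOs and 56.3% had neither mark. No library was repeated, so these shares hold both stage and library differences, which cannot be told apart.

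Single promoters are given in the order NSCs, OPCs and NFOs. At Olig2, H3K4me3 covered 4001, 4001 and 2326 bp. Gpr17 had 0, 1991 and 1925 bp of H3K4me3. Sox10 had 201 bp with 411 bp of H3K27me3 in NSCs, and 2085 and 811 bp of H3K4me3 with no H3K27me3 in OPCs and NFOs. These 3 genes held H3K4me3 and no H3K27me3 in both stages of the lineage. Pdgfra had 3148, 8047 and 3776 bp of H3K4me3, and Cspg4 had 1382, 2679 and 0 bp. Cnp had 3795, 1541 and 212 bp. Mbp had 873, 1200 and 0 bp, Cldn11 545, 695 and 0 bp and Myrf 454, 629 and 0 bp, whereas Mag and Mog had neither mark in any stage. At Cspg4, Cnp, Mbp, Cldn11 and Myrf the NFO list had the least H3K4me3, as it had over the genome.

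The factors of neuronal and ventral fate held H3K27me3 in most stages, with and without H3K4me3. Neurod1 was covered over all 4001 bp in NSCs, OPCs and NFOs, with 561 bp of H3K4me3 in NSCs and none later. Pax6 was K4 alone in NSCs (6201 bp) and had 11529 bp of H3K27me3 with 3216 bp of H3K4me3 in OPCs and 8972 with 738 bp in NFOs. Zic1 went from 6707 bp of H3K4me3 and 316 bp of H3K27me3 in NSCs to 3015 and 5891 bp in OPCs and 523 and 4178 bp in NFOs. At Nkx6-2 the NSC list had 1758 bp of H3K4me3 and the later lists none, with H3K27me3 over 2548, 2218 and 2923 bp. Nkx6-1 held H3K4me3 in OPCs alone (1915 bp) and H3K27me3 in every stage (2562, 3040 and 2177 bp). Pdk1, a kinase that limits pyruvate use, was both in NSCs and OPCs (2238 bp of H3K27me3 in OPCs) and K4 alone in NFOs (2070 bp). Epcam, an epithelial adhesion protein, likewise had 382 and 1047 bp of H3K27me3 in NSCs and OPCs and none in NFOs.

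**Figure D5:**
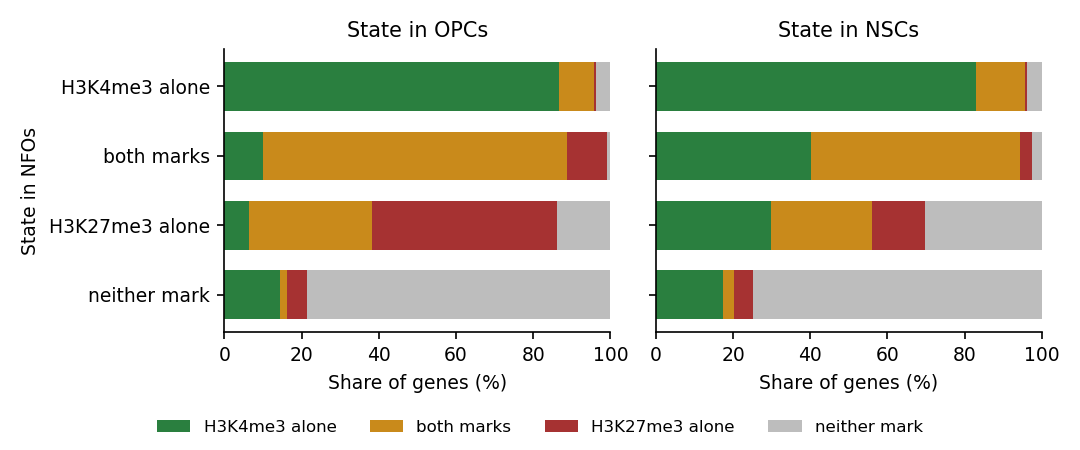
For the genes of each NFO promoter state (rows), share of genes (%) in each state in OPCs and in NSCs (panels), coloured by state. K4 alone genes of NFOs are mostly K4 alone in the earlier stages too (86.6% in OPCs, 82.9% in NSCs). K27 alone genes of NFOs are K27 alone in 47.9% in OPCs and 13.7% in NSCs.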

How the data were processed

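Called peaks of 2 NFO histone ChIP-Seq libraries were used, with the OPC, NSC and NFO OLIG2 lists for comparison. The authors mapped reads to mm10 with Bowtie2, kept unique reads, called broad histone peaks with MACS2 (SPP for OLIG2) and removed blacklisted regions. Tool versions and the control of the peak calls are not given in the sources used here. The deposited files give each peak's fold enrichment (a ratio) and its −log10 p and q values, and all listed peaks were used, which reach a false discovery rate (FDR) of 0.0979 for H3K4me3. They hold no read totals, so depth is unknown. TSS came from GENCODE release M21 (35312 genes) and, for other genes, NCBI (7912 genes), 121596 positions in all. Hand-made lists of 61 gene families, and the genes compared, were chosen with earlier results of these data known. Named genes were all members of lists of up to 12 and otherwise up to 6 per state by covered bp, plus cell type markers, the genes at the 3 widest and most enriched peaks, genes the study names beside a mark, and those at the distance limit. Where a list of over 12 is named in full or a gene outside this rule is named, it was chosen after its values were seen. State calls were tested on simulated data (2000 of 2000 genes recovered). RefSeq promoters matched 25979 genes (60.1%), and CpG and motifs were read from the GRCm38.p6 genome. The analysis ran in Python 3.11.15 with SciPy 1.17.1 (intervals), pysam 0.24.0 (sequence), pandas 2.3.3, Matplotlib 3.10.9 and NumPy 2.4.6.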

Additional observations from a re-analysis of the deposited data

How the results depend on the processing

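No paired analysis was possible because each mark had 1 library per cell type and no replicate numbers. With the filter of the Methods (FDR below 0.05 and fold enrichment above 3.5) K4 alone held 9792 genes, K27 alone 1555, both 1069 and neither 30808, and 88.1%, 76.3% and 74.6% of the K4 alone, K27 alone and both genes kept their state. At a fold enrichment above 5 they held 5828, 504 and 406 genes, overlap fell to 340 and overlap with no single peak to 265, the marks covered 4.30 Mb (H3K4me3) and 3.39 Mb (H3K27me3), and H3K27me3, K4 alone and neither led 9, 4 and 40 lists. At this fold the order of the 2 covers reversed, and H3K4me3 covered more than H3K27me3. Both marks were at 931 genes within 1 kb, at 2203 within 5 kb and at 486 with 1 kb, 1 TSS per gene and the filter of the Methods, the last chosen after seeing the data. Protein-coding genes alone gave 1073 K27 alone and 11304 neither. Peaks of at least 500 bp gave 6157 K4 alone, 440 both, 264 overlapping and 158 with no single peak, and an overlap of at least 200 bp gave 326 of these. OLIG2 shares with a fold enrichment above 5 were 13.2% (K4 alone), 13.2% (both) and 3.32% (neither), and at 1 TSS per gene 9.79%, 9.35%, 3.09% and, for K27 alone, 3.11%. The cause of these shifts was not tested, beyond the fewer peaks, positions or genes each setting admits. Over all settings 53 values of main comparisons moved by less than the limit set. Another 22 values of planned settings and 5 of settings chosen after seeing the data moved by more. Of the 61 lists, 42 counted as moved at a fold enrichment above 5 and 11 with the filter of the Methods.

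The number of libraries, 1 per mark, allows no replicate error. Peak lists depend on depth, which is unknown, and the absence of a called peak is not the absence of the mark.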

Other observations

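Imprinted genes, of which 1 parental copy is silent, had H3K27me3 at 9 of 23 members, against 9.56% of protein-coding genes. Igf2, a growth factor expressed from the paternal copy, had H3K27me3 over 6697 of 16842 bp and no H3K4me3. Grb10, an inhibitor of insulin signalling, had 355 bp of H3K4me3 and 4724 bp of H3K27me3. Peg3 and Peg10 were K4 alone, with 1186 of 8014 bp and 1180 of 4101 bp, and H19 and Snrpn had neither mark. A list of 23 genes was counted with no test.

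The chromosomes differed in their share of protein-coding genes with H3K27me3. On chromosome X, 1.69% of 948 genes were K27 alone, 2.32% both and 68.1% neither. On chromosome 12, 6.38% of 643 genes were K27 alone and 7.78% both. The Methods give about equal numbers of each sex, and the part of sex in these shares was not tested.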
